A study of Mus musculus with 10 samples.

Results

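The heat shock proteins and chaperones were taken as the 61 genes whose symbol begins with Hsp and a digit or the letter a, b, d, e or h, or with Dnaja, Dnajb or Dnajc, or reads Tcp1, Cct2 to Cct8, Calr, Canx, Pdia3, Pdia4 or Pdia6. They are measured by 87 of the 10833 probe sets that carry a single gene symbol, and make up 61 of 8251 genes. The rule reads symbols only, but it was chosen with earlier results of these data known. By the place where the protein works, 42 genes (59 probe sets) belong to the cytosol and nucleus, 7 genes (8 probe sets) to mitochondria and 12 genes (20 probe sets) to the endoplasmic reticulum (ER). Above the floor described below lay 77 probe sets of 58 genes: 52 probe sets of the cytosol and nucleus, 8 of mitochondria and 17 of the ER. Calr, the ER lectin chaperone calreticulin, was at the floor on 8 of the 9 arrays with a strain name and at 4.91 on MOLF A. Hspb1, a small heat shock protein, was at the floor except for 4.84 on LP B, and Dnajb5 was at the floor on every strain array, so these 3 genes had no test.

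The series holds 10 Affymetrix oligonucleotide arrays, each with total RNA of a mammary gland tumour from adult females at 90 days of age. All the mice carried the MMTV-PyMT transgene (polyomavirus middle T antigen under the promoter of the mouse mammary tumour virus, which is active in mammary epithelium), so no group lacks the oncogene. The strain label reads FVB/Nj for all 10 arrays; the groups here rest on the names in the titles, which are FVBn (1 array, B) and, with an array A and an array B each, ILn, LP, MOLF and NZB. The titles speak of a mix in each case and do not say of what, and 1 array, with no strain name, entered no comparison. Whether arrays A and B stem from different animals is not stated, so a p-value here covers only array-to-array spread, which may be technical. The titles also give dates, and what these refer to is not stated. FVBn B, ILn B, LP B, MOLF B and NZB A share 1 date, LP A and MOLF A another, and ILn A and NZB B another. Arrays A and B of a strain thus never share a date, so their spread includes any difference between dates.

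Chaperones bind unfolded or partly folded proteins and let them fold, assemble or cross membranes without clumping. In the cytosol, Hsp70 and Hsp90 proteins work with J-domain partners (the Dnaj genes), and the ring-shaped TCP-1 complex (Tcp1 and the Cct genes) folds actin and tubulin; mitochondria use the Hspd1 and Hspe1 chamber, and the ER uses Hspa5, Hsp90b1, the lectin chaperones Canx and Calr and the disulphide isomerases of the Pdia family. Heat shock factors raise the cytosolic and mitochondrial sets through heat shock elements in promoters, while the unfolded protein response raises the ER set through ER stress elements, and secretory tissues such as mammary gland depend on the latter.

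The letters that these pathways are known to read are shown first, because they show which members carry an element of either kind near their start. Promoter windows (250 bases upstream of the annotated start, RefSeq, GRCm38.p6) were matched by symbol for 53 of the 61 genes, all but Cct4, Dnajc2, Dnajc5, Dnajc11, Hsp90aa1, Hspa8, Hspa9 and Hspb2. They were searched on both strands for the ER stress element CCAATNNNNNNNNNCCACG. It was found in 6 of the 12 ER genes, in 0 of 36 cytosolic and nuclear genes and in 0 of 5 mitochondrial genes. The share over all 27025 genes with a window was 0.13%. The 6 genes were Hspa5, Pdia6, Canx, Calr, Dnajc3 and Hsp90b1, the last with a pair of matches. Capitals mark the fixed letters of the element, and each site is read 5′ to 3′ on the strand of its gene; where the gene's strand carries the reverse complement, the capitals are CGTGG and ATTGG.
Hspa5, chr2:34772025-34772043, plus strand: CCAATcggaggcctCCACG
Pdia6, chr12:17266491-17266509, plus strand: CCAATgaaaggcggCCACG
Canx, chr11:50325800-50325818, minus strand: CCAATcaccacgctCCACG
Dnajc3, chr14:118937827-118937845, plus strand: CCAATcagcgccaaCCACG
Calr, chr8:84847075-84847093, minus strand: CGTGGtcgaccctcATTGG
Hsp90b1, far site, chr10:86705638-86705656, minus strand: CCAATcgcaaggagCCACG
Hsp90b1, near site, chr10:86705533-86705551, minus strand: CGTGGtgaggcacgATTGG

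A heat shock element of 3 units (TTCNNGAANNTTC or its reverse complement GAANNTTCNNGAA) was found in 3 member genes, Hspd1, Hspe1 and Dnajb6, against 0.514% of all genes with a window. Hspd1 and Hspe1 face away from each other on chromosome 1 and share 1 stretch of overlapping units, at chr1:55088059-55088076. The looser element of 2 units, TTCNNGAA or GAANNTTC, which the longer one contains, was found in 12 member genes: 9 of 36 in the cytosol and nucleus, 2 of 5 in mitochondria and Dnajc10 in the ER. It was found in 14.5% of all genes with a window, so a match to it says little by itself. Capitals below mark the units.
Dnajb6, chr5:29735852-29735864, plus strand: GAAtcTTCcgGAA
Hspd1, chr1:55088064-55088076, minus strand: TTCcgGAAggTTC
Hspe1, chr1:55088059-55088071, plus strand: TTCtaGAAccTTC
Hspa1a, chr17:34972253-34972260, minus strand: GAAgaTTC
Hspa1b, chr17:34959335-34959342, minus strand: GAAgaTTC
Cct5, chr15:31601873-31601880, minus strand: TTCcaGAA
Dnajb4, chr3:152193852-152193859, minus strand: TTCtaGAA
Hsph1, chr5:149636362-149636369, minus strand: TTCtcGAA

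**Figure D1:**
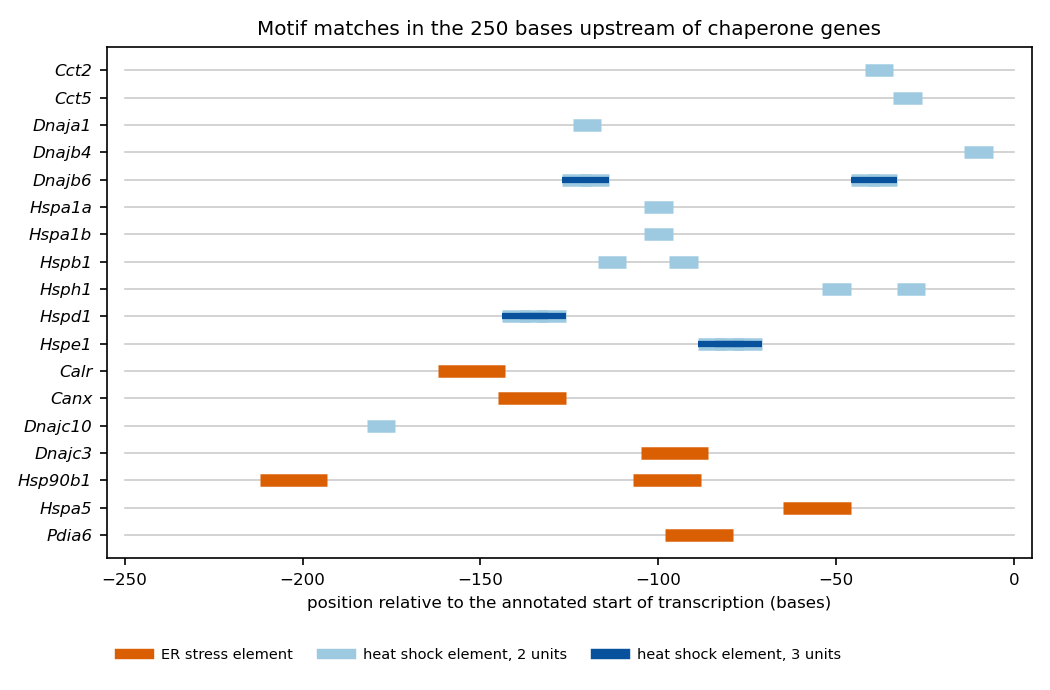
Position of each match to the ER stress element and to the heat shock elements of 2 and 3 units, in bases upstream of the annotated start of transcription (0 at the right), for the 18 member genes with a match. Orange bars (ER stress element) stand only on ER genes; Dnajb6 and Hsph1 have more than 1 annotated start, so their single site is drawn once for each.

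For 3 genes whose values are described below, the last 200 bases before the start are given whole (RefSeq, GRCm38.p6), with the element of each in capitals: Hspa5, the classic target of the unfolded protein response, at chr2:34771890-34772089 on the plus strand; Pdia6, at chr12:17266389-17266588 on the plus strand; and Hspa1a, the inducible Hsp70, at chr17:34972157-34972356 on the minus strand.
Hspa5: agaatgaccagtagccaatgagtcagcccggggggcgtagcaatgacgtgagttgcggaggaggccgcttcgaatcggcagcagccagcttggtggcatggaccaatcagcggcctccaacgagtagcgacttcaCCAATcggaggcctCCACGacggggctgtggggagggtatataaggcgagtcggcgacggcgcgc
Pdia6: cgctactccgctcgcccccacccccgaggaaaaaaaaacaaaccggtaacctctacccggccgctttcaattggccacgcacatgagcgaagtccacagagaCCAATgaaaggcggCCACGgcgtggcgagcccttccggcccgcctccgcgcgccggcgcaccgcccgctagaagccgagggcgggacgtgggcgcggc
Hspa1a: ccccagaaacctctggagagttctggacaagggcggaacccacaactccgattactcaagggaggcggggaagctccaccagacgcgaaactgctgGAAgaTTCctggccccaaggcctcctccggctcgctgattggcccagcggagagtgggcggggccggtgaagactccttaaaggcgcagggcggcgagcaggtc

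The unit throughout is quantile normalized log2 intensity. A floor stands at the 30th percentile, 4.75, and a value there is only an upper bound. A level belongs to its own probe set, and levels of different genes are not compared. Apart from the other 7 strain arrays stood MOLF A and NZB B, which correlated at 0.927 with each other across probe sets and at 0.812 to 0.868 with the rest, which correlated among themselves at 0.931 to 0.974. The log2 ratio of the 3′ to the 5′ actin probe set, a sign of RNA length, lay between 0.22 and 0.28 for FVBn and ILn and between 0.60 and 1.12 for all other strain arrays. Of 12 genes that mark mammary epithelium 10 were above the floor, with Krt8 at 10.81 to 11.38 and Krt18 at 10.18 to 11.06, and Krt5 and Krt14 were not. Markers of other tissue moved with the strain names. The mean of 21 skeletal muscle genes relative to the 9 arrays was 1.26 to 1.34 on LP, 0.84 to 0.94 on NZB, -0.34 to -0.28 on ILn, -1.20 to -0.99 on MOLF and -1.57 on FVBn. That of 11 salivary and lacrimal secretory genes was 2.90 on FVBn, 2.40 to 2.46 on ILn, -0.55 to -0.27 on MOLF, -1.79 to -1.43 on LP and -2.02 to -1.70 on NZB. In such bulk RNA, fewer cells of a type and less RNA per cell cannot be told apart.

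No chaperone probe set passed the limma test (adjusted p under 0.05, Benjamini-Hochberg over all 9899 probe sets tested) in any of 6 comparisons. In the moderated F test over ILn, LP, MOLF and NZB the count was 0 of 77, against 0.748% of all probe sets called. It was also 0 for ILn against the mean of the other 3 strains (0.404% of all called), for LP (0.313%), for MOLF (0.414%), for NZB (0.101%) and for the 4 strains against FVBn (0.313%). At background rates this low, 77 probe sets would hold less than 1 call, so a count of 0 is near the background. At an unadjusted p under 0.05 the F test counted 5 of 77 members (6.49%), against 7.9% of all probe sets. The same count was 7 for ILn (9.09%, against 7.11%), 3 for LP (3.9%, against 5.69%), 6 for MOLF (7.79%, against 6.42%), 8 for NZB (10.4%, against 8.4%) and 4 for FVBn (5.19%, against 3.41%). The median difference of the 77 members was near 0 in every comparison: -0.05 for ILn, 0.03 for LP, 0.02 for MOLF, -0.01 for NZB and -0.07 for the 4 strains minus FVBn, where all probe sets gave -0.02, -0.01, 0.01, -0.00 and 0.02. With median centring in place of quantile normalization the members' median was 0.14 for LP and -0.15 for the 4 strains minus FVBn, where all probe sets gave 0.07 and -0.03. By compartment, the medians for ILn were -0.04 in the cytosol and nucleus, -0.13 in mitochondria and 0.06 in the ER.

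**Figure D2:**
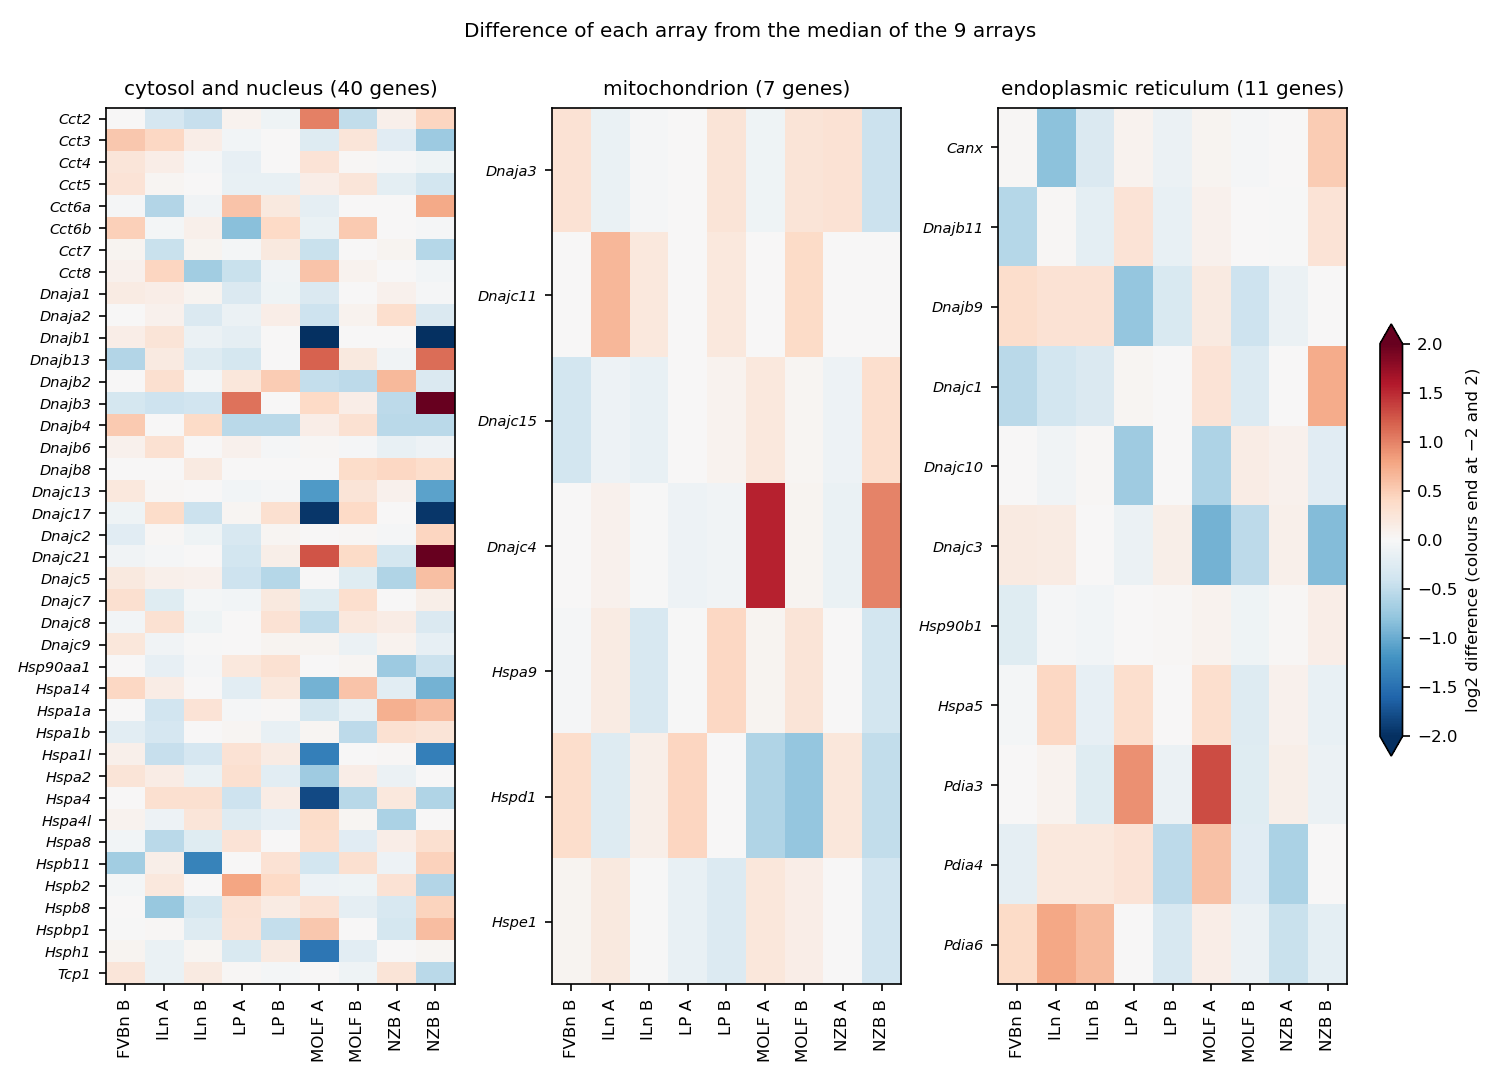
Each row is a chaperone gene (its brightest tested probe set), each column 1 of the 9 strain arrays, and colour is the log2 difference from the median of the 9 arrays, with red above and blue below. The deepest colours sit in the MOLF A and NZB B columns, in both directions, as for Dnajb1 (blue) and Dnajc21 (red).

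In the cytosol and nucleus the smallest F test p belonged to Hsp90aa1, the inducible cytosolic Hsp90 (limma adjusted p = 0.205). Its log2 intensity was 10.91 on FVBn, 10.76 and 10.89 on ILn, 11.13 and 11.21 on LP, 10.92 and 10.95 on MOLF, and 10.19 and 10.48 on NZB. Both NZB arrays lay below all 7 others and both LP arrays above them. The NZB mean was 10.34 ± 0.21 (SD, n = 2), a difference of -0.64 from the other 3 strains (SE 0.119, 95% interval -0.92 to -0.36, limma adjusted p = 0.178). LP, at 11.17 ± 0.06 (SD, n = 2), stood 0.47 above the others (0.19 to 0.75, limma adjusted p = 0.331). Among the 5 arrays that share a title date, the NZB array differed by -0.83 from the mean of ILn, LP and MOLF. A second, dimmer Hsp90aa1 probe set was at the floor on 7 arrays and read 7.19 on MOLF A and 8.07 on NZB B, the arrays that stood apart, so it does not follow the first.

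Hspa1a and Hspa1b encode the stress-inducible Hsp70, in near-identical copies that neighbouring probe sets may not separate. Hspa1a read 7.90 on FVBn, 7.53 and 8.18 on ILn, 7.87 and 7.92 on LP, 7.55 and 7.75 on MOLF, and 8.61 and 8.52 on NZB. Hspa1b read 8.85 on FVBn, 8.72 and 9.06 on ILn, 9.09 and 8.92 on LP, 9.10 and 8.54 on MOLF, and 9.37 and 9.31 on NZB. For both genes the NZB arrays were the highest of the 9, without overlap, and these were the only 2 members with both NZB arrays above all 6 arrays of ILn, LP and MOLF (2.6% of members, against 3.74% of all probe sets). The difference was 0.76 for Hspa1a (SE 0.213, 0.26 to 1.26, limma adjusted p = 0.397) and 0.44 for Hspa1b (0.00 to 0.87, limma adjusted p = 0.59). NZB A and NZB B, which differed by over 2-fold in 13 members, were close here (SD 0.06 and 0.04). Leaving out MOLF A and NZB B gave 0.77 and 0.56. Within the title dates that hold an ILn and an NZB array, Hspa1a was lower on ILn by differences of -0.996 and -0.427. Hsp90aa1, by contrast in direction, was among the 5 members (6.49%, against 4.24% of all probe sets) with both NZB arrays below the 6 others. The rest were 1 probe set each of Cct3, Cct5, Dnajb6 and Hspa4. Among the other probe sets of Cct3, Cct5 and Hspa4 some had the opposite sign on NZB.

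Hspa8, the constitutive Hsp70, read 10.72 on FVBn, 10.24 and 10.54 on ILn, 11.04 and 10.78 on LP, 11.12 and 10.55 on MOLF, and 10.91 and 11.10 on NZB. The ILn arrays were the lowest, ILn B and MOLF B being nearly equal, and the difference for ILn was -0.53 (-0.95 to -0.10, limma adjusted p = 0.557). It was -0.20 within the title date that holds all strains. Hspb8, a small heat shock protein that works with Bag3 in clearing misfolded proteins, read 7.77 and 8.17 on ILn and 8.20 to 8.97 on the other 7 arrays, a difference of -0.67 (-1.26 to -0.09, limma adjusted p = 0.61). Within the title date that holds all strains the Hspb8 difference was -0.24. Hspb2, a small heat shock protein of muscle, read 8.05 and 7.65 on LP and 6.68 to 7.54 on the other 7 arrays, a difference of 0.64 for LP (-0.04 to 1.31, limma adjusted p = 0.903). LP also had the highest muscle marker mean (1.26 to 1.34, with 0 of 21 markers at the floor on either array). NZB, with a muscle marker mean of 0.84 to 0.94, read 7.54 and 6.68 for Hspb2. The part of muscle RNA in these values was not tested. Members with both LP arrays above the 6 arrays of the other strains numbered 4 (5.19%, against 4.47% of all probe sets): Hsp90aa1, Hspb2, the testis Hsp70 Hspa1l and 1 probe set of Dnajc3. Those below numbered 0 (against 2.55%). Without MOLF A and NZB B the counts were 7 above (9.09%, against 8.1%) and 3 below (3.9%, against 6.84%).

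Hsph1, an Hsp110 that exchanges nucleotide on Hsp70, was 7.33 on MOLF A and 8.46 to 8.95 on the other 8 arrays. Its MOLF difference of -0.80 (-1.53 to -0.07, limma adjusted p = 0.69) rested on that array: without MOLF A and NZB B it was -0.18. Dnajb1, the main J-domain partner of inducible Hsp70, was 5.21 on MOLF A, at the floor on NZB B and 7.11 to 7.55 on the other 7. Dnajc21 ran the other way, at 6.75 on MOLF A, 7.61 on NZB B and 5.13 to 5.87 elsewhere. Dnajb3 read 7.55 on NZB B, 6.35 on LP A and 4.75 to 5.66 on the other 7. For Dnajb1 and Dnajc21 the extreme arrays were thus MOLF A and NZB B, the arrays that stood apart; for Dnajb3 they were NZB B and LP A. Dnaja1, another Hsp70 partner, kept within 8.89 to 9.35 on all 9 arrays, and its 4 strain differences lay between -0.18 and 0.19.

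Dnajb4, also a J-domain partner of Hsp70, was above the floor in 3 strain names only. It read 5.83 on FVBn, 5.30 and 5.68 on ILn and 5.43 and 5.60 on MOLF, and was at the floor on both LP and both NZB arrays. The groups did not overlap, but every reading lies close to the floor, and for LP and NZB there is only a bound. The F test gave a limma adjusted p of 0.479.

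In the TCP-1 ring the smallest F test p belonged to Cct5. It read 10.64 on FVBn, 10.41 and 10.37 on ILn, 10.21 on both LP arrays, 10.50 and 10.61 on MOLF, and 10.17 and 9.998 on NZB. MOLF lay above all 6 arrays of the other 3 strains and NZB below all 6, with differences of 0.33 (0.08 to 0.58, limma adjusted p = 0.55) and -0.30 (-0.55 to -0.05, limma adjusted p = 0.534). A second Cct5 probe set gave 0.33 for MOLF and 0.14 for NZB, so the order for NZB did not carry over. Of the other subunits, Cct4 spanned 9.59 to 10.03 over the 9 arrays, Cct7 9.36 to 10.13, Cct8 7.05 to 8.32, Cct2 6.90 to 8.41, Cct6a 7.83 to 9.16, the testis subunit Cct6b 4.79 to 6.15 and Tcp1 6.79 to 7.59. Among these the differences furthest from 0 were those of Cct2 and Cct6a on ILn, at -0.57 (-1.47 to 0.33) and -0.55 (-1.14 to 0.04). The 3 probe sets of Cct3 differed in sign on NZB, at 0.50, -0.33 and -0.56. The only members with both MOLF arrays above the 6 others were Cct5 and 1 of 3 Cct3 probe sets (2.6%, against 2.84% of all probe sets). That Cct3 probe set gave 0.36 for MOLF, while the others gave -0.01 and, for the brightest, 0.07.

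**Figure D3:**
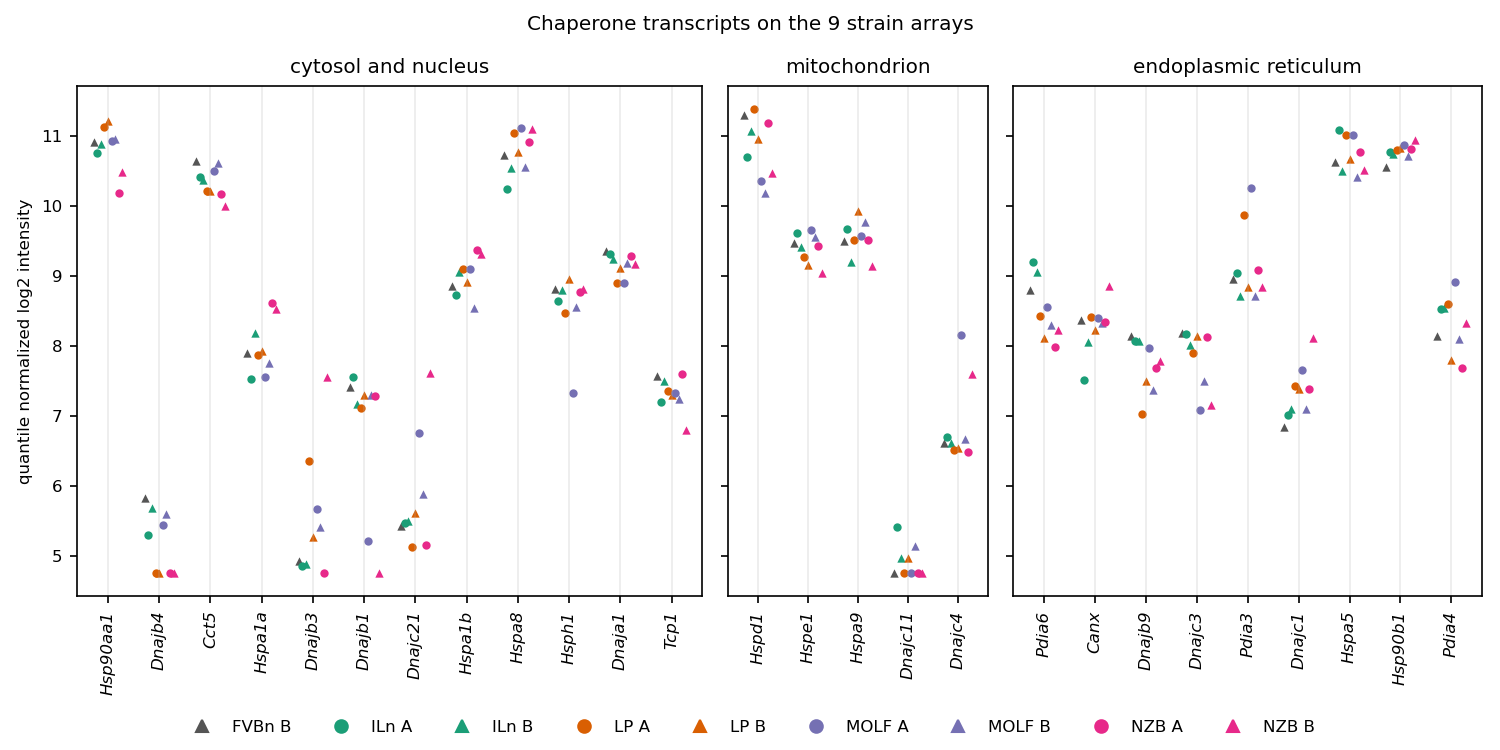
Quantile normalized log2 intensity of 26 chaperone genes on the 9 strain arrays, by compartment; colour is the strain name and circles and triangles are arrays A and B, and the lowest marks (4.75) lie at the floor. The NZB marks are highest for Hspa1a and Hspa1b and lowest for Hsp90aa1, the ILn marks are highest for Pdia6, and the MOLF marks are lowest for Hspd1.

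The barrel and the lid of the mitochondrial folding chamber had MOLF differences of opposite sign, neither past the test. Hspd1 (Hsp60, the barrel) read 11.30 on FVBn, 10.69 and 11.06 on ILn, 11.38 and 10.95 on LP, 10.36 and 10.18 on MOLF, and 11.18 and 10.46 on NZB. Both MOLF arrays lay below all 7 others, NZB B being the next lowest, and the MOLF difference was -0.69 (SE 0.221, -1.21 to -0.17, limma adjusted p = 0.533). Hspe1 (Hsp10, the lid), which shares the heat shock element printed above, read 9.47 on FVBn, 9.61 and 9.41 on ILn, 9.27 and 9.15 on LP, 9.65 and 9.55 on MOLF, and 9.42 and 9.04 on NZB. Its MOLF arrays were the highest and the third highest of the 9, a difference of 0.29 (-0.05 to 0.63, limma adjusted p = 0.847). Within both title dates that hold an LP and a MOLF array, Hspd1 was higher on LP (by 1.03 and 0.77) and Hspe1 lower (by differences of -0.38 and -0.41). The Hspd1 difference was -0.97 with the title date as a block (limma adjusted p = 0.18) and -0.89 when MOLF A and NZB B were left out. A dimmer Hspd1 probe set gave -0.34 for MOLF. Hspd1 was 1 of 2 members with both MOLF arrays below the 6 others (2.6%, against 3.38% of all probe sets); the other was Dnajb2, a neuronal J-domain protein, at 6.53 and 6.48 on MOLF, 6.72 on NZB B and 6.97 to 7.65 on the rest.

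Hspa9 (mortalin, the mitochondrial Hsp70 that pulls imported proteins inward) overlapped in all strain names, at 9.49 on FVBn, 9.67 and 9.19 on ILn, 9.51 and 9.92 on LP, 9.56 and 9.76 on MOLF, and 9.51 and 9.14 on NZB. Its 4 differences lay between -0.28 and 0.24. Dnajc4 read 8.15 on MOLF A, 7.60 on NZB B and 6.48 to 6.70 on the other 7 arrays, again the arrays that stood apart. Dnaja3, a partner of Hspa9, spanned 8.07 to 8.78, and Dnajc11 was no higher than 5.41 on any array.

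In the ER, Pdia6, a disulphide isomerase of the unfolded protein response, was the member with the smallest p for ILn. Its brightest probe set read 8.80 on FVBn, 9.19 and 9.06 on ILn, 8.42 and 8.11 on LP, 8.55 and 8.30 on MOLF, and 7.98 and 8.22 on NZB. The ILn arrays were the highest and FVBn the next, with no overlap between ILn and any other array. The ILn mean was 9.13 ± 0.10 (SD, n = 2), 0.86 above the other 3 strains (SE 0.167, 0.47 to 1.25, limma adjusted p = 0.146). The difference held within each title date that has an ILn array: 0.93 against the other 3 strains in one, and 0.97 and 1.08 against NZB. A second Pdia6 probe set gave 0.63 (0.18 to 1.09, limma adjusted p = 0.438) and the third 0.26 (-0.32 to 0.85). With limma's array weights the first probe set passed the test, at an adjusted p of 0.0418, the only member call among the alternatives run.

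Dnajb9, an ER J-domain partner of Hspa5 that the unfolded protein response raises, was also high on FVBn and ILn. Its brighter probe set read 8.14 on FVBn, 8.07 on both ILn arrays, 7.02 and 7.49 on LP, 7.97 and 7.37 on MOLF, and 7.68 and 7.79 on NZB. ILn and FVBn lay above the 6 others, MOLF A being the closest. The ILn difference was 0.52 (-0.04 to 1.07, limma adjusted p = 0.739) and the LP difference -0.57 (-1.12 to -0.01, limma adjusted p = 0.855). On the dimmer probe set FVBn read 6.91, ILn 6.58 and 6.48 and the other 6 arrays 4.75 to 6.28, a difference of 1.12 for ILn (0.29 to 1.96, limma adjusted p = 0.478). The 2 probe sets of Dnajb9 and 2 of the 3 of Pdia6 were thus 4 of the 17 ER probe sets (23.5%) with both ILn arrays above all 6 arrays of LP, MOLF and NZB. Over all members that count was 5 (6.49%), against 6.6% of all probe sets, and 4 probe sets of 2 genes are not 4 independent cases. The remaining member was 1 of 5 Hspa4 probe sets, whose ILn differences spanned -0.65 to 0.83. Without MOLF A and NZB B it was 6 (7.79%, against 9.12%), with the same 4 in the ER. The salivary and lacrimal genes were also higher on FVBn and ILn (2.40 to 2.90) than on the rest (-2.02 to -0.27). Of these genes 0 of 11 were at the floor on ILn, 1 on FVBn and 1 to 7 on the other arrays. The actin 3′ to 5′ log2 ratio split the strain arrays in the same way, at 0.22 to 0.28 on FVBn and ILn and 0.60 to 1.12 on the rest. The part of either in the Pdia6 and Dnajb9 values was not tested.

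Canx, the membrane-bound lectin chaperone, ran the other way. It read 8.36 on FVBn, 7.52 and 8.05 on ILn, 8.41 and 8.23 on LP, 8.40 and 8.32 on MOLF, and 8.34 and 8.85 on NZB. Both ILn arrays were the lowest, ILn A by far, and the difference was -0.64 (-1.15 to -0.14, limma adjusted p = 0.535), or -0.25 within the title date that holds all strains. Canx and Dnajc1 were the ER genes among 6 members (7.79%, against 3.77% of all probe sets) with both ILn arrays below the 6 others; the rest were Hspa8, Hspb8, Dnajc15 and 1 probe set of Cct3. Without MOLF A and NZB B that count was 11 (14.3%, against 7.39%). Dnajc1 spanned 6.84 to 8.11 over the 9 strain arrays. ER chaperones thus did not shift as 1 group on ILn: 9 of the 17 ER probe sets were above the other strains and 8 below, with a median of 0.06.

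For Hsp90b1 and Hspa5 the differences between strain names were small. Hsp90b1 (the ER Hsp90) read 10.55 on FVBn and 10.72 to 10.93 on the other 8 arrays, and its 4 strain intervals lay between -0.31, the lower end for ILn, and 0.33, the upper end for NZB. Hspa5 (BiP, the ER Hsp70) read 10.63 on FVBn, 11.08 and 10.50 on ILn, 11.01 and 10.67 on LP, 11.01 and 10.42 on MOLF, and 10.76 and 10.52 on NZB. In each of the 4 strains its A and B arrays were further apart than any 2 strain means, and its 4 differences lay between -0.14 and 0.12. The ILn differences of Hspa5 and Hsp90b1 were 0.06 (-0.46 to 0.58) and -0.07. Pdia3 read 10.25 on MOLF A, 9.87 on LP A and 8.71 to 9.08 on the other 7 arrays; both high arrays share a title date. Pdia4 ranged from 7.68 to 8.91 and overlapped in all strain names. Dnajc3, a co-chaperone that restrains the stress kinase PERK, read 7.08 and 7.49 on MOLF, 7.15 on NZB B and 7.89 to 8.19 on the other 6 arrays on its brightest probe set, a MOLF difference of -0.63 (-1.30 to 0.04). Its other 2 tested probe sets gave -0.11 and 0.23.

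**Figure D4:**
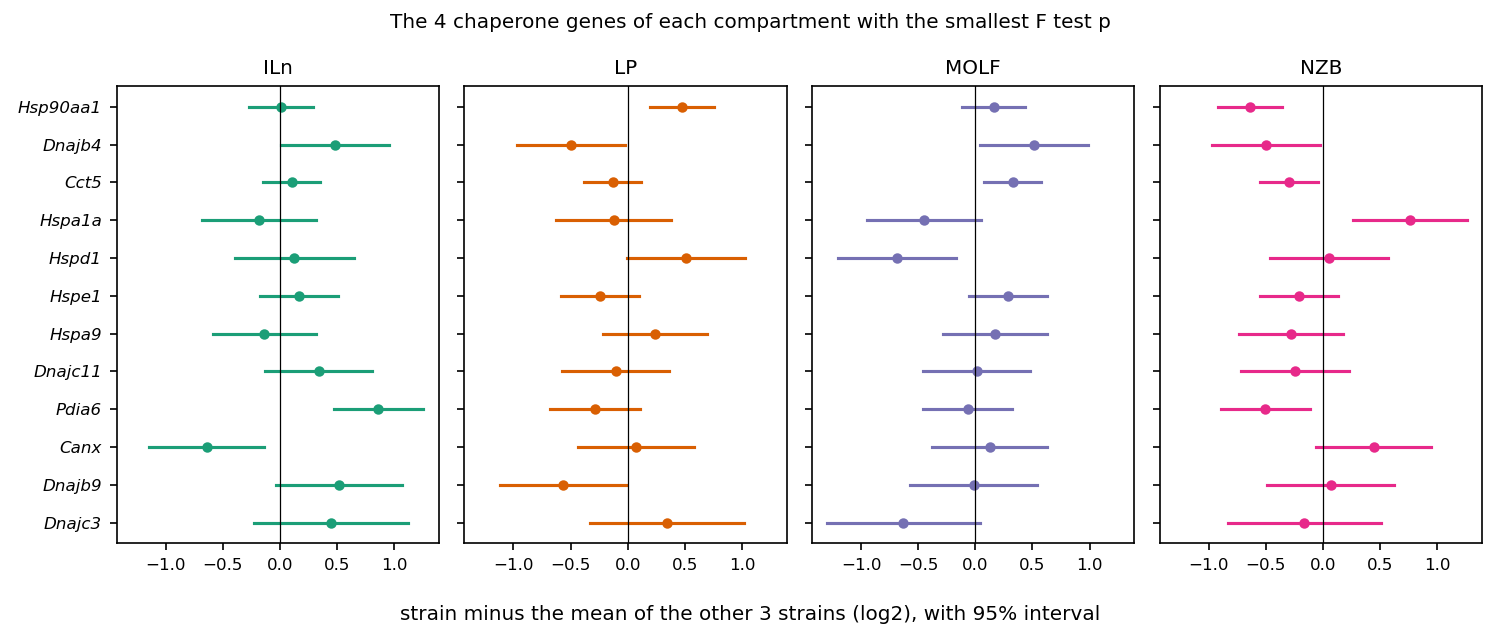
Difference of each strain name from the mean of the other 3 (log2, points) with its 95% interval (lines, limma) for the 4 genes of each compartment with the smallest F test p. The intervals furthest from 0 are those of Hsp90aa1 on NZB (-0.92 to -0.36) and Pdia6 on ILn (0.47 to 1.25), and no adjusted p passed the threshold.

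The 2 arrays of a strain differed as much for chaperones as for other genes. In each strain these 2 arrays bear different title dates, so the values below include any difference between dates. The median size of the difference between array A and array B over the 77 members was 0.20 for ILn, 0.27 for LP, 0.45 for MOLF and 0.44 for NZB, and over all probe sets 0.21, 0.24, 0.46 and 0.46. Members over 2-fold apart numbered 2 on ILn (2.6%, against 2.24% of all probe sets), 5 on LP (6.49%, against 4.65%), 14 on MOLF (18.2%, against 20.0%) and 13 on NZB (16.9%, against 21.8%). MOLF A held the highest value of the 9 arrays for 15 members (19.5%, against 15.5%) and NZB B for 16 (20.8%, against 20.3%), while NZB B held the lowest for 13 (16.9%, against 19.2%). Between the NZB arrays 0 of 17 ER members and 11 of 52 cytosolic ones were over 2-fold apart, with median sizes of 0.28 and 0.53. Between the LP arrays the order was the other way, with 2 of 17 and 3 of 52 and median sizes of 0.38 and 0.26. These differences between compartments were not tested. The median range over the 9 arrays was 1.11 for members and 1.09 for all probe sets, and without MOLF A and NZB B it was 0.77 and 0.70.

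**Figure D5:**
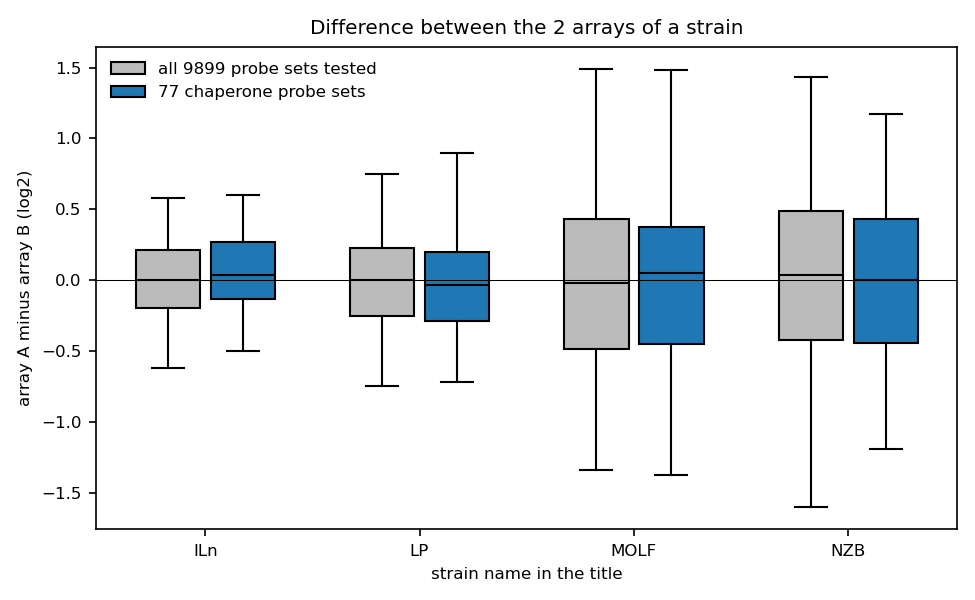
Difference between arrays A and B of each strain name (log2) for all 9899 probe sets tested (grey) and the 77 chaperone probe sets (blue); boxes span the middle 50% with the median as a line, and whiskers reach from the 5th to the 95th percentile. The boxes of MOLF and NZB are wider than those of ILn and LP, for chaperones as for all probe sets.

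Against FVBn, with 1 array and no replicate, the 4 members at an unadjusted p under 0.05 were Cct5, Dnajb4 and 1 probe set each of Cct3 and Dnajb9, all with a limma adjusted p of 0.999. Cct5 was -0.33 on the 4 strains relative to FVBn (-0.66 to -0.01) and Dnajb9 -1.23 (-2.31 to -0.14). The second, dimmer Cct5 probe set had the opposite sign, at 0.47 (-0.38 to 1.33). For Cct3 the 3 probe sets gave 0.75, -0.14 and -0.60, so the gene has no direction. Probe sets of 1 gene often disagreed in sign: of 13 genes with at least 2 tested probe sets, the signs matched in 5 for ILn, 6 for LP, 7 for MOLF and 4 for NZB, and in 0 for all 4 strains. The 5 Hspa4 probe sets, for an Hsp110 of the cytosol, spanned -1.18 to 0.93 on MOLF.

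The other genes of these pathways gave the same counts. Of co-chaperones and heat shock regulators, 30 of 39 listed were on the array and 27 were tested, and limma called 0 in each of the 6 comparisons; the smallest F test p belonged to Serpinh1, the collagen chaperone (limma adjusted p = 0.759), and Tomm34, an import co-chaperone (0.768). Of 73 ER folding and unfolded protein response genes, 58 were tested and 0 called; the smallest were Rcn1, a calcium-binding ER protein (limma adjusted p = 0.552, with -0.73 for LP and 0.72 for MOLF), and Ppic, a prolyl isomerase (0.632). Of 37 mitochondrial folding, import and protease genes, 28 were tested and 0 called, with Timm13 and Tomm20 smallest (both 0.701). The median ILn difference was 0.02, 0.07 and -0.00 in these lists in that order, and the median NZB difference -0.02, -0.05 and -0.29. The mean of the mitochondrial list relative to the 9 arrays was -0.02 on NZB A and -0.32 on NZB B, an array that stood apart.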

How the data were processed

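The authors deposited linear intensity values, 1 for each probe set on each array. Their mean, trimmed by 2% at each end, was 500.2 on ILn A and 150.1 on every other array. The median log2 value was 7.77 on ILn A, 6.44 on MOLF A, 6.40 on NZB B and 5.95 to 6.10 on the rest. The summary of probes into probe sets is not stated in the labels. From these intensities the 9 strain arrays were quantile normalized as log2 values in R 4.3.3 with limma 3.58.1, and the unnamed array was given their distribution. The floor was the 30th percentile (an intensity of 27.0), to which lower values were raised. Of 12422 probe sets without the 66 controls, 9899 lay above that floor on at least 2 arrays and were tested. Precision is limited by the number of arrays.

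A limma model (lmFit, eBayes with an intensity trend) gave each of the 5 strain names a mean, with 4 residual degrees of freedom. It assumes 1 spread for all groups and lets the single FVBn array vary like the rest. The arrays depart from this. Over all probe sets the median size of the A to B difference was 0.21 for ILn, 0.24 for LP and 0.46 for both MOLF and NZB. Intervals and p-values may thus be too narrow or small for MOLF and NZB, and too wide or large for ILn and LP. Benjamini-Hochberg adjustment ran over all probe sets tested, and the fit was tested on simulated data.

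Symbols came from the platform annotation, updated through Entrez identifiers with the RefSeq gene table of GRCm38.p6. Promoter sequences and their coordinates came from the RefSeq promoter table of the same build. Of the probe sets, 10855 had 1 symbol, 396 several and 1237 none. Where a gene has several probe sets, the tested one with the highest mean is given unless stated. Named with values or ranges were, in each compartment, the 4 genes with the smallest F test p and the 3 with the widest range. For Dnajc11 only an upper bound is given. Also named was a core of well-known chaperones, of which 17 were tested. Calr and Hspb1 lay near the floor, and Hsp90ab1 was not among the probe sets with 1 symbol. Members without overlap and second probe sets were added after their values were seen. From other pathway lists the 2 genes with the smallest F test p are named. Members and lists were chosen with earlier results of these data known.

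Alternatives changed the normalization, floor, filter, variance trend, array weights, title date, letters and arrays used.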

Additional observations from a re-analysis of the deposited data

How the results depend on the processing

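The count of chaperones past the limma test stayed at 0 in 101 of 102 alternative fits over the 6 comparisons. The exception was ILn with array weights, where 1 member was called (Pdia6, limma adjusted p = 0.0418). The weights favoured ILn and LP over MOLF and NZB. Under them the limma adjusted p was 0.733 for Hsp90aa1 on NZB, 0.936 for Hspa1a on NZB and 0.999 for Hspd1 on MOLF. In the main fit these were 0.178, 0.397 and 0.533. Leaving out in turn each of the 8 arrays of ILn, LP, MOLF and NZB gave 0 to 0 calls in each comparison. With the array letter as a replicate block the count was 0 in all 6 comparisons, and deviations of same-lettered arrays correlated at -0.71 to 0.13 across pairs of strains, so the letters were not taken to pair the arrays. In part they follow the title date: LP and MOLF, the pair at 0.13, share a title date for both letters. ILn and NZB share title dates with opposite letters and were at 0.02. The pair at -0.71 was MOLF and NZB, whose arrays that stood apart, MOLF A and NZB B, bear opposite letters. The smallest adjusted p of any member ranged from 0.0912 to 0.559 in the F test, 0.0418 to 0.986 for ILn, 0.172 to 0.995 for LP, 0.115 to 0.917 for MOLF, 0.0848 to 0.807 for NZB and 0.33 to 1.0 for FVBn. Over the 4 genes of each compartment with the smallest F test p, each in the strain comparison with its smallest p, 1 direction reversed: Hsp90aa1 on NZB was 0.30 with the mean over its probe sets (adjusted p = 0.845), because the dimmer probe set reads 8.07 on NZB B. Leaving out MOLF A and NZB B, chosen for the overlap counts after seeing the data, gave 11 in place of 6 members below on ILn, 7 in place of 4 above on LP and 3 in place of 0 below on LP; fewer arrays make separation easier.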

Other observations

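The array whose title names no strain was not compared with any group. Its chaperone values, set to the same distribution, lay below those of all 9 strain arrays for 17 of 77 members (22.1%, against 17.3% of all probe sets) and above them for 10 (13.0%, against 16.4%). In the ER 9 of 17 probe sets were below and 1 above. Those below hold more than 1 probe set of Dnajc3 and of Pdia6, so they are not 9 independent cases. The brightest Pdia6 probe set was not among them, and Dnajb11 and Dnajc1 were beyond the range by only -0.006 and -0.042. Hsp90b1 read 10.14 where the strain arrays spanned 10.55 to 10.93, Hspa5 10.12 (10.42 to 11.08) and Pdia3 8.49 (8.71 to 10.25). In the cytosol and nucleus 8 of 52 were below and 8 above. Those above included Dnaja1 at 9.64 (8.89 to 9.35), Dnajb1 at 7.81 (4.75 to 7.55), Hspb8 at 9.23 (7.77 to 8.97) and the muscle small heat shock protein Hspb2 at 9.25 (6.68 to 8.05). Of the 8 mitochondrial probe sets 1, of Dnajc15, was above and 0 below.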
